A study of Mus musculus with 24 samples.

Results

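The genes described here are 35 markers and effectors of microglia, of the macrophages at the borders of the brain and of the complement system. They were chosen by name, and all 35 were matched by symbol among the 51826 genes of the count table through the GENCODE M21 annotation. RNA of the dorsal hippocampus was sequenced in 24 libraries of mice labelled as male, on a C57BL/6J background, aged 2 to 4 months. CBP KIX/KIX mice carry, in the whole body and not in a chosen cell type, a mutation of the KIX domain of CBP that prevents the binding of phosphorylated CREB, and WT littermates served as controls. The experiments differed in the learning task and the library type. In RNA-Seq 1, 3 WT and 3 CBP KIX/KIX mice were taken 1 h after 3 days of Morris water maze (MWM) training and 3 WT mice came from the homecage, and libraries were made from total RNA depleted of ribosomal RNA. In RNA-Seq 2, 4 WT and 4 CBP KIX/KIX mice were taken 1 h after 1 day of contextual fear conditioning (CFC), 3 WT and 4 CBP KIX/KIX mice came from the homecage after handling without shock, and libraries were made from polyA-selected RNA. Levels are therefore compared within an experiment only, since task and library type cannot be told apart between them. Homecage CBP KIX/KIX mice were sequenced in RNA-Seq 2 only.

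Microglia are the resident macrophages of the brain parenchyma. They survive on signals through the receptor CSF1R, keep their identity through transcription factors such as PU.1, IRF8 and SALL1, and sense neurons and injury through receptors for fractalkine and for purines. Complement is a cascade of plasma proteins that microglia and astrocytes also make locally. C1q, assembled from the products of *C1qa*, *C1qb* and *C1qc*, starts the classical pathway, C4 and C3 follow it, and the tagging of synapses by these proteins for engulfment by microglia is known from the developing brain.

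Some libraries stood apart from the others of their group. CBP KIX/KIX homecage replicate 3 held *Fos*, the immediate early gene used here as a check of training, at 117 CPM, against 1.83 to 5.18 CPM in the other 6 homecage libraries of RNA-Seq 2 and 17.99 to 33.6 CPM in the CFC libraries. In WT homecage replicate 3 of RNA-Seq 1, deviations from the group mean depended most on the base composition of the genes, as described with the MWM comparison. CPM are counts scaled to a common library size after upper-quartile normalization. Total counts ran from 38174044 to 65709282 for RNA-Seq 1 and from 15385836 to 46056290 for RNA-Seq 2, so that 3 counts, taken as the smallest detectable amount, were 0.0448 to 0.0754 and 0.0655 to 0.194 CPM. *Crebbp*, which encodes CBP, was not called in any comparison, and the KIX mutation itself cannot be seen in counts per gene. Markers of white blood cells were close to the smallest detectable amount. Those of neutrophils and monocytes summed to 0.154 to 1.30 CPM and those of lymphocytes to 0.0496 to 1.21 CPM. Red blood cell markers were well above it, summing to 97.4 to 381 CPM in RNA-Seq 1 and to 28.1 to 58.9 CPM in RNA-Seq 2.

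All 35 genes had enough counts to be tested in every comparison. They took 0.0626% to 0.0693% of all counts in RNA-Seq 1 and 0.0607% to 0.0831% in RNA-Seq 2. Per kilobase of exon, *C1qa* was the highest of the 35 in RNA-Seq 1, at a mean of 49.5 CPM per kb, followed by *C1qb* at 18.8 and *C1qc* at 18.7. In RNA-Seq 2, *Ctss*, which encodes the lysosomal protease cathepsin S, was the highest at 40.3 CPM per kb, with *C1qa* at 35.4 and *C1qb* at 35.01. The receptor gene *Csf1r* stood at 17.4 and 15.6 CPM per kb in the respective experiments. *Ptprc*, which encodes the leukocyte antigen CD45, was the lowest in both, at 0.103 and 0.181 CPM per kb. The length used is that of all annotated exons of a gene merged, 18313 bases for *Ptprc*. Without division by length *Pf4* was lower, at median CPM of 0.364 and 0.303 against 1.73 and 3.18 for *Ptprc*. The sum of 7 parenchymal microglia markers, all among the 35 genes, ran from 122 to 142 CPM over the 9 libraries of RNA-Seq 1 and from 154 to 191 CPM over the 15 of RNA-Seq 2. In whole tissue, fewer cells of a type and less RNA per cell cannot be told apart.

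The spread between replicates differed between genes. The coefficient of variation within groups had a median over the 35 genes of 11.3% in RNA-Seq 1 and 10.8% in RNA-Seq 2, and it was lowest for *Cx3cr1* (3.72%) in RNA-Seq 1 and for *Fcrls* (5.99%) in RNA-Seq 2. *C3* (63.1%), *Mrc1* (30.6%) and *Cd74* (26.4%) were the 3 genes above 25% in RNA-Seq 1. In RNA-Seq 2, *Cd74* (87.3%), *Pf4* (70.6%), *Mrc1* (56.4%) and *C3* (30.0%) were above 25%. *Pf4*, another border macrophage gene, was at 14.3% in RNA-Seq 1, below microglia genes such as *Ptprc* (22.9%) and *Gpr34* (20.6%).

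**Figure D1:**
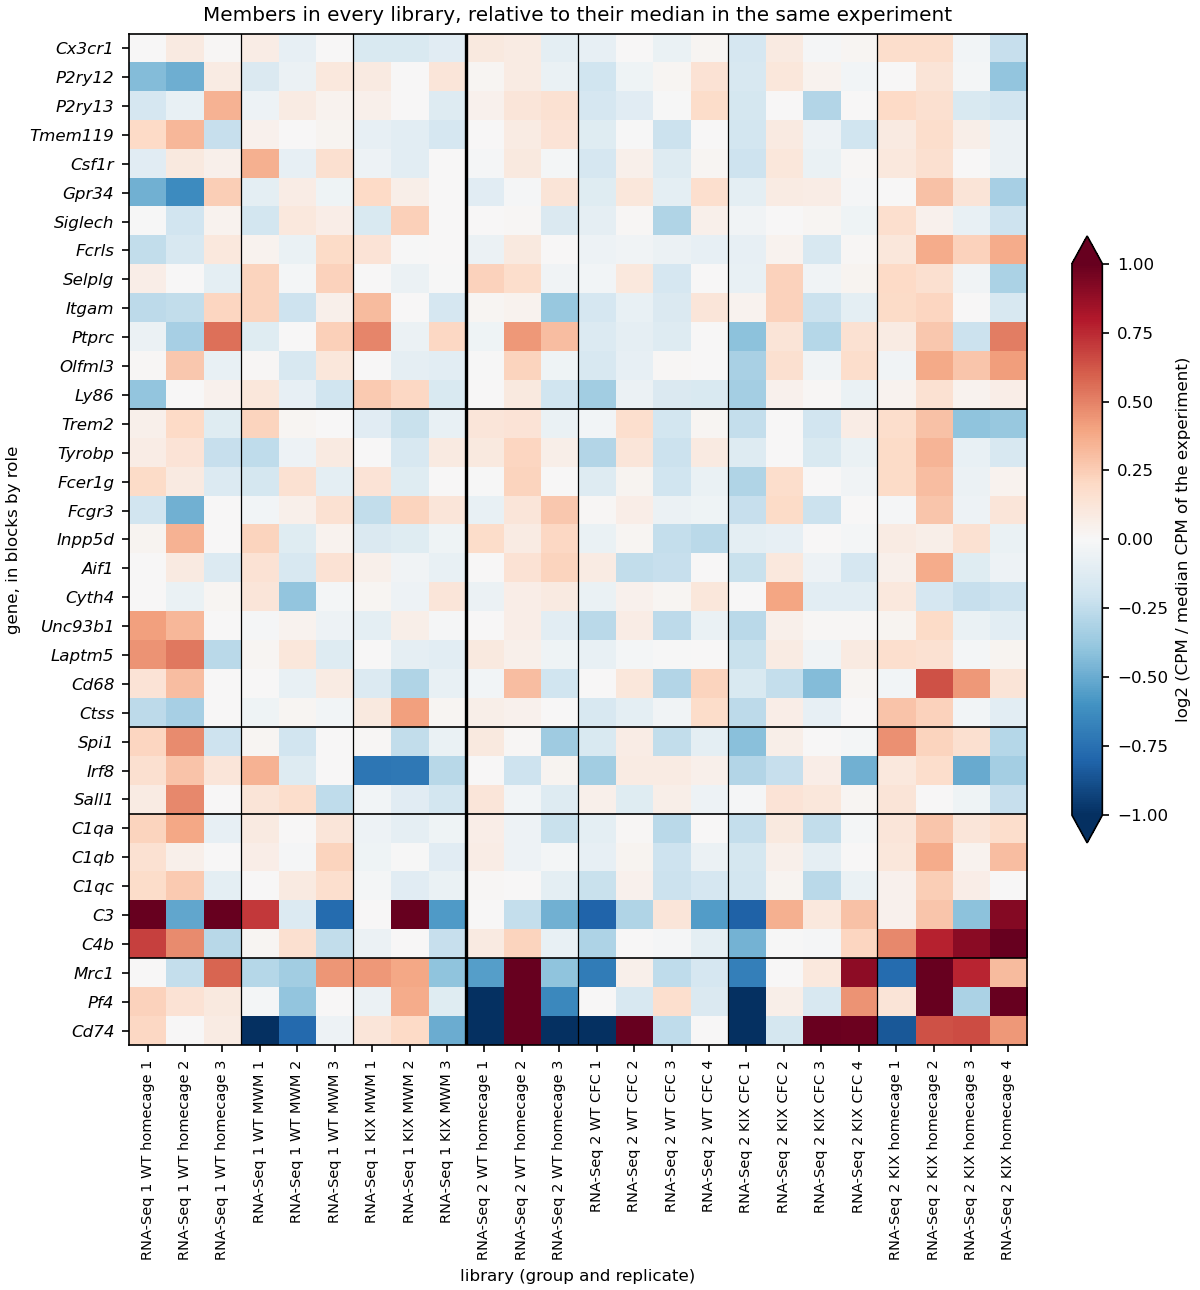
Colours give the log2 ratio of the CPM in each of the 24 libraries (columns, by group and replicate) to the median CPM of the same gene (rows, in blocks by role) within its experiment, with colours limited to ±1, and the thick line separates RNA-Seq 1 from RNA-Seq 2. Most genes of parenchymal microglia stay close to 0, *C4b* is high in the 4 CBP KIX/KIX homecage libraries, and *Mrc1*, *Pf4* and *Cd74* vary from library to library within groups.

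For 3 of the genes the results turn on, the 250 bases upstream of the transcript start are shown, as RefSeq gives them on GRCm38.p6, 5′ to 3′ on the strand of the gene. *Irf8* was the only gene called in a comparison, *C1qb* belongs to the complement genes that stood higher in CBP KIX/KIX homecage mice, and *Inpp5d* had the lowest p of the 35 genes between WT CFC and WT homecage mice. The window of *Irf8* is chr8:120736108-120736357 (+), with 2 matches to TTCNNNGAA, the letters of a STAT site, in capitals, starting 171 and 153 bases before the start. The window of *C1qb* is chr4:136886201-136886450 (−), with a match to GGAAGT on the opposite strand, the core bound by PU.1 and other ETS factors, in capitals 53 bases before the start. The window of *Inpp5d* is chr1:87620062-87620311 (+), with the same core in capitals 18 bases before the start.
*Irf8*: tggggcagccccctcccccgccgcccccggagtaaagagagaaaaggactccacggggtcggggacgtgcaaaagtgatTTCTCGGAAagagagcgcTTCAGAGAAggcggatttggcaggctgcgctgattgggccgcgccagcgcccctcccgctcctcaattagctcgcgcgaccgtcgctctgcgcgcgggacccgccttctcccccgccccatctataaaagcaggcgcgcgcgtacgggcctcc
*C1qb*: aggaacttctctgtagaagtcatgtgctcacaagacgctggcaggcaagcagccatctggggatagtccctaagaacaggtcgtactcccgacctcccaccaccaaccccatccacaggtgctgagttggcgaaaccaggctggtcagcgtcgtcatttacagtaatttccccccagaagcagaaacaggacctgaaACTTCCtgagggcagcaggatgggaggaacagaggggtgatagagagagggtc
*Inpp5d*: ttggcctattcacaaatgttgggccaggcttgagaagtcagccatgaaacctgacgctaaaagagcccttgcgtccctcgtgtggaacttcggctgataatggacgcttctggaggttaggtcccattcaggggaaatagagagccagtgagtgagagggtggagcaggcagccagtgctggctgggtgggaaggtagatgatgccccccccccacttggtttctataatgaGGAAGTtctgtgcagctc
Of the 35 genes, 25 had a window that was searched, and *Csf1r* and *Cd74* were not searched here. GGAAGT, searched on both strands, was in the windows of 12 of these 25 genes (43.3% of their 30 windows) and in 19.7% of the 32851 windows of all genes. The longer form GAGGAAGT, which contains GGAAGT, was in 3 (*C1qc*, *Inpp5d* and *Pf4*), against 2.44% of all windows. TTCNNNGAA was in 2 (*Irf8* and *Siglech*), against 7.02% of all windows. A paired half-site of interferon regulatory factors (IRF) was in 2 (*Aif1* and *Ctss*), against 2.98%, and a joint ETS and IRF site in 0, against 2.30%. Such matches describe the letters of these windows only. Not in the table were *Selplg*, *Tmem119*, *C1qa*, *Tyrobp*, *Spi1*, *Gpr34*, *C4b* and *Unc93b1*.

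The first question was whether MWM training changed these genes in WT mice. Of the 35 genes, 0 had an adjusted p under 0.05 between WT MWM and WT homecage mice by edgeR's quasi-likelihood test with Benjamini-Hochberg adjustment, where 0.0135% of the 22276 genes tested were called. An unadjusted p under 0.05 was found for 2 of them, or 5.71% against 10.9% of all genes. *Fos* was called, at a log2 fold change of 1.14 (SE 0.14, adjusted p = 0.0125). Of the 35 genes, 22 stood lower and 13 higher after training, with a median log2 fold change of −0.07 that equalled the −0.07 of all genes tested.

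Among receptors and surface markers, 8 of 13 had a positive log2 fold change and the median was 0.05. *Cx3cr1*, the receptor for neuronal fractalkine, was at 44.1, 46.8 and 44.3 CPM in WT homecage and at 46.2, 41.6 and 44.0 CPM in WT MWM mice. *P2ry12*, the purine receptor of resting microglia, was at 9.5002, 9.14 and 13.6 CPM in WT homecage and at 11.6, 12.4 and 13.8 CPM in WT MWM mice. The groups overlapped for both genes, and for *P2ry12* the third homecage library was as high as the trained mice. *Csf1r* was at 90.2, 104 and 101 CPM before and at 124, 92.1 and 109 CPM after training, with a log2 fold change of 0.14 (SE 0.11, adjusted p = 0.631). Of its exonic bases, 15.1% overlap *Hmgxb3* on the opposite strand. *Trem2*, a lipid-sensing receptor that signals through the adaptor encoded by *Tyrobp*, was at 10.2, 11.3 and 9.01 CPM in WT homecage and at 11.5, 9.96 and 9.80 CPM in WT MWM mice, again with overlapping groups.

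The 5 complement genes had a median log2 fold change of −0.12, with 4 negative. *C1qa* was at 57.3, 64.2 and 46.4 CPM in WT homecage and at 52.1, 49.1 and 53.4 CPM in WT MWM mice. *C1qb* was at 22.1, 20.7 and 19.97 CPM and at 20.9, 19.8 and 23.2 CPM, and *C1qc* at 39.6, 41.8 and 32.5 CPM and at 34.8, 37.1 and 39.1 CPM in the same order. The 3 subunits of C1q overlapped between the groups. *C4b*, which encodes a form of complement C4, was at 155, 134 and 79.8 CPM in WT homecage and at 97.8, 108 and 81.1 CPM in WT MWM mice, a log2 fold change of −0.36 (SE 0.19, adjusted p = 0.492). *C3* was at 2.92, 0.805 and 4.10 CPM and at 1.88, 1.05 and 0.678 CPM, with a log2 fold change of −1.13 (SE 0.55, adjusted p = 0.47). For *C4b*, the third homecage library lay below all trained mice while the first and second lay above them.

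The lowest p of the 35 genes belonged to *Cd74*, the invariant chain of MHC class II, made by border macrophages. It was at 4.45, 3.86 and 4.10 CPM in WT homecage and at 1.83, 2.25 and 3.72 CPM in WT MWM mice. The groups did not overlap, and the log2 fold change was −0.67 (SE 0.24, adjusted p = 0.357). *Mrc1*, the mannose receptor of border macrophages, was at 1.71, 1.45 and 2.56 CPM before and at 1.41, 1.34 and 2.31 CPM after training, with overlapping groups. *Unc93b1*, a chaperone of nucleic-acid-sensing Toll-like receptors, chosen here after its values were seen, had a log2 fold change of −0.27 (SE 0.11, adjusted p = 0.408).

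WT homecage replicate 3 decided part of these values. Its deviations from the group mean fell with the GC content of the genes over the 35 genes (r = −0.69, rho = −0.77). Those of replicates 1 and 2 rose with it (r = 0.57 and 0.43), a description over genes of 3 libraries. Deviations from a common mean cancel out, so a fall in 1 library goes with a rise in the others. Over 22215 genes, r was 0.34, 0.13 and −0.44 in replicates 1, 2 and 3. GC-poor *Gpr34*, a receptor for lysophosphatidylserine, was at 2.56, 2.32 and 4.24 CPM in the 3 homecage libraries, and GC-rich *Laptm5*, a lysosomal membrane protein of leukocytes, at 51.7, 54.7 and 31.5 CPM. Both genes were named after their values were seen. Without this library, 2418 of 22563 genes tested were called in place of 3, among them 6 of the 35 genes (*P2ry12*, *Tmem119*, *Gpr34*, *Laptm5*, *Unc93b1* and *C4b*), with *Laptm5* at −0.49 (adjusted p = 0.00855), *C4b* at −0.60 (adjusted p = 0.0112) and *Unc93b1* at −0.39 (adjusted p = 0.0155). With GC-content normalization and all 9 libraries, 2 genes and 0 of the 35 were called. With the replicate number as a block, 1 gene in place of 3 was called in this comparison. In a fit of WT MWM and WT homecage mice alone with that block 465 of 21657 genes were, with *Cd74* and *C3* among them.

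**Figure D2:**
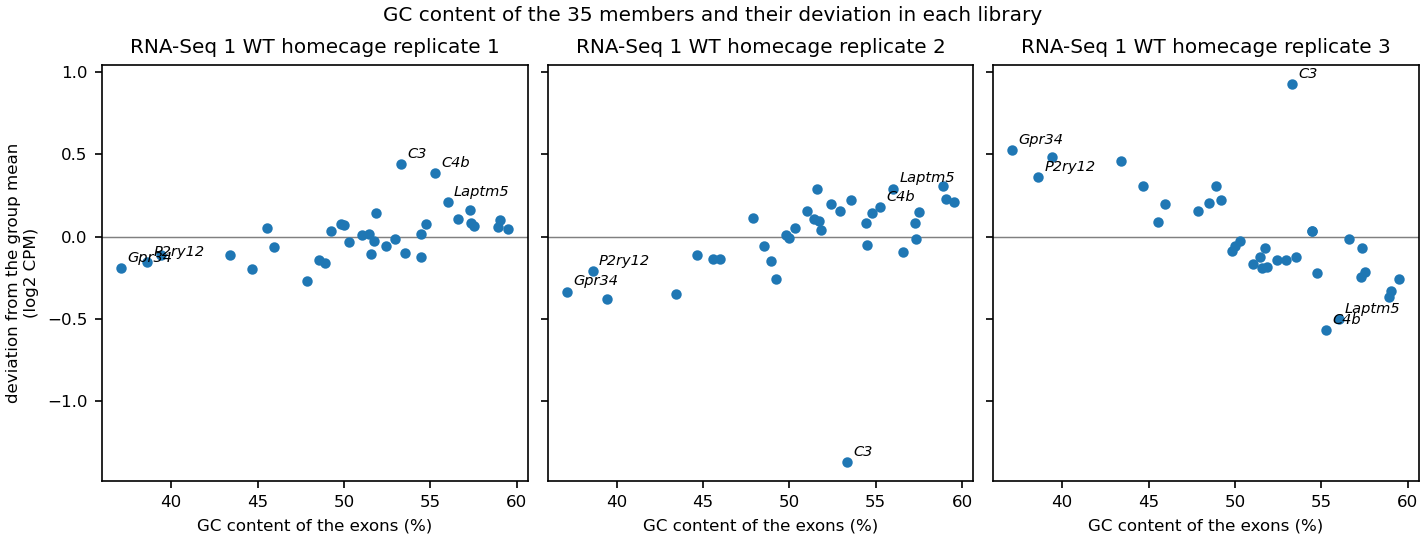
For the 35 genes, the GC content of the exons (x axis, %) is set against the deviation of their log2 CPM from the mean of the 3 WT homecage libraries of RNA-Seq 1 (y axis), with 1 panel per library. GC-rich genes such as *C4b* and *Laptm5* lie high in replicates 1 and 2 and low in replicate 3, and GC-poor *Gpr34* and *P2ry12* lie the other way round, while *C3* departs from the other genes in each library.

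The next question was whether the KIX mutation changed these genes after MWM training. Between CBP KIX/KIX MWM and WT MWM mice, 0 of the 35 genes and 0% of all genes tested were called (edgeR's quasi-likelihood test). An unadjusted p under 0.05 was found for 2 of the 35, or 5.71% against 5.77% of all genes. Their median log2 fold change was −0.04, against −0.02 over all genes, with 21 lower and 14 higher. *Irf8*, a transcription factor that microglia need for their development, had the lowest p. It was at 7.90, 5.69 and 6.22 CPM in WT MWM and at 3.77, 3.79 and 5.14 CPM in CBP KIX/KIX MWM mice, while the WT homecage mice held 6.96, 7.58 and 6.76 CPM. All 3 mutant libraries lay below all 6 WT libraries. The log2 fold change was −0.63 (SE 0.16, adjusted p = 0.813).

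The other transcription factors did not share this size of difference. *Spi1*, which encodes PU.1, had a log2 fold change of −0.04 (SE 0.18) and *Sall1*, a factor of microglial identity, one of −0.14 (SE 0.14). *Cd74* was the other gene with an unadjusted p under 0.05, at 4.19, 4.44 and 2.74 CPM in CBP KIX/KIX MWM mice, with a log2 fold change of 0.54 (SE 0.24, adjusted p = 0.813) and overlapping groups. *Cx3cr1* was at 39.5, 39.6 and 40.7 CPM in the mutant mice, below the 3 WT MWM libraries, at a log2 fold change of −0.14 (SE 0.08). *Trem2* was at 9.06, 8.41 and 9.31 CPM, also below the 3 WT MWM libraries, at −0.22 (SE 0.12). The C1q genes stood at 47.3, 46.1 and 47.6 CPM (*C1qa*), 19.4, 19.9 and 18.4 CPM (*C1qb*) and 34.4, 32.1 and 33.2 CPM (*C1qc*), with log2 fold changes of −0.13 (SE 0.11), −0.15 (SE 0.09) and −0.15 (SE 0.10). None of these passed the test. *P2ry12* (13.6, 12.8 and 13.96 CPM), *Csf1r* (94.0, 90.8 and 97.5 CPM), *Mrc1* (2.30, 2.23 and 1.30 CPM), *C3* (1.15, 3.00 and 0.777 CPM) and *C4b* (92.4, 96.5 and 82.1 CPM) overlapped between the genotypes.

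CFC was tested in each genotype. Between WT CFC and WT homecage mice, 0 of the 35 genes and 0% of all genes tested were called (edgeR's quasi-likelihood test). An unadjusted p under 0.05 was found for 1 of the 35, or 2.86% against 2.39% of all genes. The median log2 fold change of the 35 genes was −0.11, against −0.01 over the 18851 genes tested, with 32 lower and 3 higher. *Inpp5d*, which encodes the phosphatase SHIP1 that limits signalling of immune receptors and was named after its values were seen, was at 14.02, 13.1 and 14.2 CPM in WT homecage and at 11.8, 12.5, 10.4 and 10.3 CPM in WT CFC mice. The groups did not overlap, at a log2 fold change of −0.29 (SE 0.08, adjusted p = 1). The replicate numbers pair these groups. With the replicate number as a block, 4 of the 35 genes had an unadjusted p under 0.05 and 0 were called, and in a fit of WT CFC and WT homecage mice alone with the block, 9 of 34 tested had one, 33 were lower and 0 were called, where 16 of 18115 genes were. The pooled spread of the fit over all 15 libraries included CBP KIX/KIX homecage replicate 3, and *Fos*, at 2.79 (SE 1.10), was not called with it.

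The other genes given in full were close between WT CFC and WT homecage mice. *Cx3cr1* was at 47.1, 46.6 and 41.1 CPM in WT homecage and at 41.5, 43.9, 41.9 and 44.6 CPM in WT CFC mice, a log2 fold change of −0.07 (95% interval −0.26 to 0.12). *P2ry12* was at 34.8, 36.4 and 32.9 CPM and at 29.9, 33.3, 34.8 and 37.9 CPM in the same order, a log2 fold change of −0.04 (95% interval −0.26 to 0.19). *Csf1r* was at 89.8, 96.7 and 89.1 CPM and at 80.8, 93.9, 82.9 and 92.0 CPM. These receptors overlapped between the groups, while within the 3 pairs of replicates *Csf1r* was lower after CFC in 3 and *Cx3cr1* and *P2ry12* in 2. *Trem2* was at 12.5, 12.6 and 11.004 CPM and at 11.3, 12.9, 10.1 and 11.7 CPM. *C1qa* was at 38.9, 35.8 and 31.8 CPM and at 34.7, 37.4, 30.7 and 37.1 CPM, and *C1qc* at 34.5, 34.3 and 32.1 CPM and at 29.4, 35.3, 29.5 and 30.6 CPM. *C3* was at 2.99, 2.53 and 2.14 CPM and at 1.72, 2.42, 3.25 and 2.03 CPM. The groups overlapped for each of these genes too.

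The clearest separation of these genes was in the CBP KIX/KIX homecage mice, for the complement genes *C4b* and *C1qa* and for the surface marker *Fcrls*. *C4b* was at 79.4, 96.8, 106 and 154 CPM in the CBP KIX/KIX homecage libraries. It was at 60.6, 66.3 and 54.0 CPM in WT homecage, at 45.9, 56.8, 56.3 and 53.2 CPM in WT CFC and at 40.9, 56.8, 56.2 and 65.9 CPM in CBP KIX/KIX CFC mice. All 4 mutant homecage libraries therefore lay above the 11 other libraries of the experiment. The trained mutants lay no higher than the WT mice, and the lowest of them, at 40.9 CPM, lay below the lowest WT library, at 45.9 CPM. The mean was 109 ± 31.9 CPM (SD, n = 4) in CBP KIX/KIX homecage and 60.3 ± 6.19 CPM (SD, n = 3) in WT homecage mice.

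Against WT homecage mice, *C4b* had a log2 fold change of 0.84 (SE 0.19, adjusted p = 0.284), and CBP KIX/KIX CFC mice differed from CBP KIX/KIX homecage mice by −0.99 (SE 0.17, adjusted p = 0.0863, edgeR's quasi-likelihood test). Both comparisons use the same 4 homecage libraries and are not independent. Neither passed the threshold. A block by replicate number, shared by all groups of RNA-Seq 2, was also fitted. With it *C4b* was called between CBP KIX/KIX CFC and homecage mice (adjusted p = 0.0241), as 1 of 4 among 18851 genes. This block spans both genotypes, and the mutant groups were not fitted alone with it. Without CBP KIX/KIX homecage replicate 3 the log2 fold changes of *C4b* were 0.856 (SE 0.202) and −1.001 (SE 0.187), and without replicate 4, the highest, 0.64 (SE 0.14) and −0.78 (SE 0.13). Without replicate 1, the lowest, they were 0.97 (adjusted p = 0.00995) and −1.12 (adjusted p = 0.00161). Leaving out each library in turn, the adjusted p of *C4b* ran up to 0.624 and 0.231 in the respective comparisons. *C4b* was called in neither comparison when any library other than CBP KIX/KIX homecage replicate 1 was left out. The difference between the training effects of the genotypes was −0.80 (SE 0.25, adjusted p = 0.95).

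The C1q genes stood in the same direction with smaller differences. *C1qa* was at 40.3, 44.9, 40.3 and 41.8 CPM in CBP KIX/KIX homecage and at 31.5, 39.7, 31.2 and 36.6 CPM in CBP KIX/KIX CFC mice, and the mutant homecage libraries lay above all WT homecage libraries as well. *C1qb* was at 39.4, 36.1 and 37.0 CPM in WT homecage, at 35.3, 38.1, 32.3 and 35.8 CPM in WT CFC, at 33.1, 38.7, 35.1 and 37.4 CPM in CBP KIX/KIX CFC and at 40.4, 48.3, 38.3 and 46.4 CPM in CBP KIX/KIX homecage mice. Only the third homecage library of the mutants fell within the range of the other groups. *C1qc* was at 35.3, 40.7, 35.9 and 34.3 CPM in CBP KIX/KIX homecage and at 30.2, 35.02, 28.5 and 32.8 CPM in CBP KIX/KIX CFC mice, with overlap. The log2 fold changes of CBP KIX/KIX CFC relative to CBP KIX/KIX homecage mice were −0.27 (SE 0.09, adjusted p = 0.211) for *C1qa*, −0.27 (SE 0.08, adjusted p = 0.167) for *C1qb* and −0.21 (SE 0.08, adjusted p = 0.265) for *C1qc*. *C3* was at 3.08, 3.62, 2.25 and 5.65 CPM in CBP KIX/KIX homecage and at 1.71, 3.82, 3.21 and 3.65 CPM in CBP KIX/KIX CFC mice, with overlap.

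*Fcrls*, a Fc receptor-like surface marker of resident microglia, named after its values were seen, followed the pattern. It was at 25.3, 30.2, 27.3 and 30.2 CPM in CBP KIX/KIX homecage mice, against 22.4, 24.9 and 23.3 CPM in WT homecage, 22.5, 22.7, 22.4 and 22.0 CPM in WT CFC and 22.0, 23.9, 20.8 and 23.5 CPM in CBP KIX/KIX CFC mice. All 4 mutant homecage libraries were above the other 11. The log2 fold changes were 0.26 (SE 0.07, adjusted p = 0.327) against WT homecage mice and −0.32 (SE 0.07, adjusted p = 0.0931) for CBP KIX/KIX CFC against CBP KIX/KIX homecage mice. *Cd68*, a lysosomal protein of phagocytes also named after its values were seen, was at 6.83, 10.8, 9.42 and 7.60 CPM in CBP KIX/KIX homecage and at 6.26, 5.91, 5.16 and 7.07 CPM in CBP KIX/KIX CFC mice, a log2 fold change of −0.51 (SE 0.16, adjusted p = 0.2).

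Other genes of microglia did not separate the mutant homecage mice. *Cx3cr1* was at 49.6, 49.7, 43.2 and 37.4 CPM and *P2ry12* at 34.3, 37.6, 33.8 and 26.2 CPM in CBP KIX/KIX homecage mice, both spanning the WT homecage values. *Trem2* was at 12.97, 14.1, 8.69 and 8.86 CPM and *Csf1r* at 97.3, 101, 90.6 and 86.9 CPM. Relative to WT homecage mice, the log2 fold change of *Cx3cr1* was 0.01 (95% interval −0.18 to 0.19), that of *P2ry12* −0.07 (95% interval −0.29 to 0.15) and that of *Csf1r* 0.03 (95% interval −0.13 to 0.20). *Trem2* was at −0.10 (95% interval −0.42 to 0.23). For these genes the data leave room for a difference within those intervals and show none beyond the spread.

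Over the whole list, 0 of the 35 genes were called between CFC and homecage mice of the CBP KIX/KIX genotype, where 0% of all genes were, and 7 had an unadjusted p under 0.05 (*C1qa*, *C1qb*, *C1qc*, *Fcrls*, *Cd68*, *Olfml3* and *C4b*), that is 20% of them against 13% of all genes. The median log2 fold change was −0.15 against 0.01 over all genes, with 31 lower and 4 higher. Between CBP KIX/KIX homecage and WT homecage mice 0 of 35 were called, against 0.0265% of all genes, and 4 (*C1qa*, *C1qb*, *Fcrls* and *C4b*) had an unadjusted p under 0.05, or 11.4% against 9.81% of all genes. The median there was 0.03 against 0.00 over all genes, with 5 of 5 complement genes higher. That median was −0.04 without CBP KIX/KIX homecage replicate 2, with 21 of the 35 genes lower. It was 0.02, 0.06 and 0.07 without replicates 1, 3 and 4. Between trained and homecage mutants the median was −0.09 without replicate 2, with 27 of 35 lower. It was −0.15, −0.19 and −0.16 without replicates 1, 3 and 4. Without CBP KIX/KIX homecage replicate 3, 8 of the 35 genes had an unadjusted p under 0.05 between trained and homecage mutants, where 1987 of 19066 genes had one. The median was −0.19 against 0.00, and *Fcrls* was at −0.34 (adjusted p = 0.12), *C1qb* at −0.32 (adjusted p = 0.176), *C1qa* at −0.29 (adjusted p = 0.337) and *Cd68* at −0.48 (adjusted p = 0.377). Without CBP KIX/KIX homecage replicate 1, 999 of 18332 genes were called between trained and homecage mutants, with 4 of the 35 (*C1qb*, *Fcrls*, *Cd68* and *C4b*). Against WT homecage mice, 445 of 18332 genes were then called, with 2 of the 35 (*Fcrls* and *C4b*). In the interaction of genotype with training 0 of 35 and 0% of all genes were called.

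Some astrocyte markers moved with *C4b*, which astrocytes also express. The sum of 6 astrocyte markers was 3734, 4020.5, 4712 and 5646 CPM in CBP KIX/KIX homecage replicates 1 to 4, which is the order of their *C4b* levels, and 3471 to 3739 CPM in the other 11 libraries of RNA-Seq 2. *Gfap*, the intermediate filament gene of astrocytes, made up most of this difference, at 342, 618, 894 and 1596 CPM in the 4 libraries and 252.5 to 373 CPM in the others. *Aqp4*, a water channel gene, was at 117, 139, 184 and 256 CPM against 115 to 140 CPM, and *Slc1a2*, a glutamate transporter gene, at 2404, 2443, 2815 and 2954 CPM against 2202 to 2385 CPM. *Slc1a3*, *Gja1* and *Aldh1l1* stayed within or close to the range of the others, and the 6 markers had a median log2 fold change of 0.10 (−0.03 to 1.32) against WT homecage mice. The sum of the parenchymal microglia markers was 183, 191, 173 and 154 CPM in the same 4 libraries and 157 to 180 CPM in the 11 others. The library with the most *C4b* thus had the highest astrocyte sum and the lowest microglia sum. The part of the astrocyte markers in the *C4b* values was not tested. The paralog *C4a*, which could share reads with *C4b*, stood at 3.97 ± 0.171 CPM (SD, n = 4) in CBP KIX/KIX homecage and at 4.16 ± 0.467 CPM (SD, n = 3) in WT homecage mice.

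**Figure D3:**
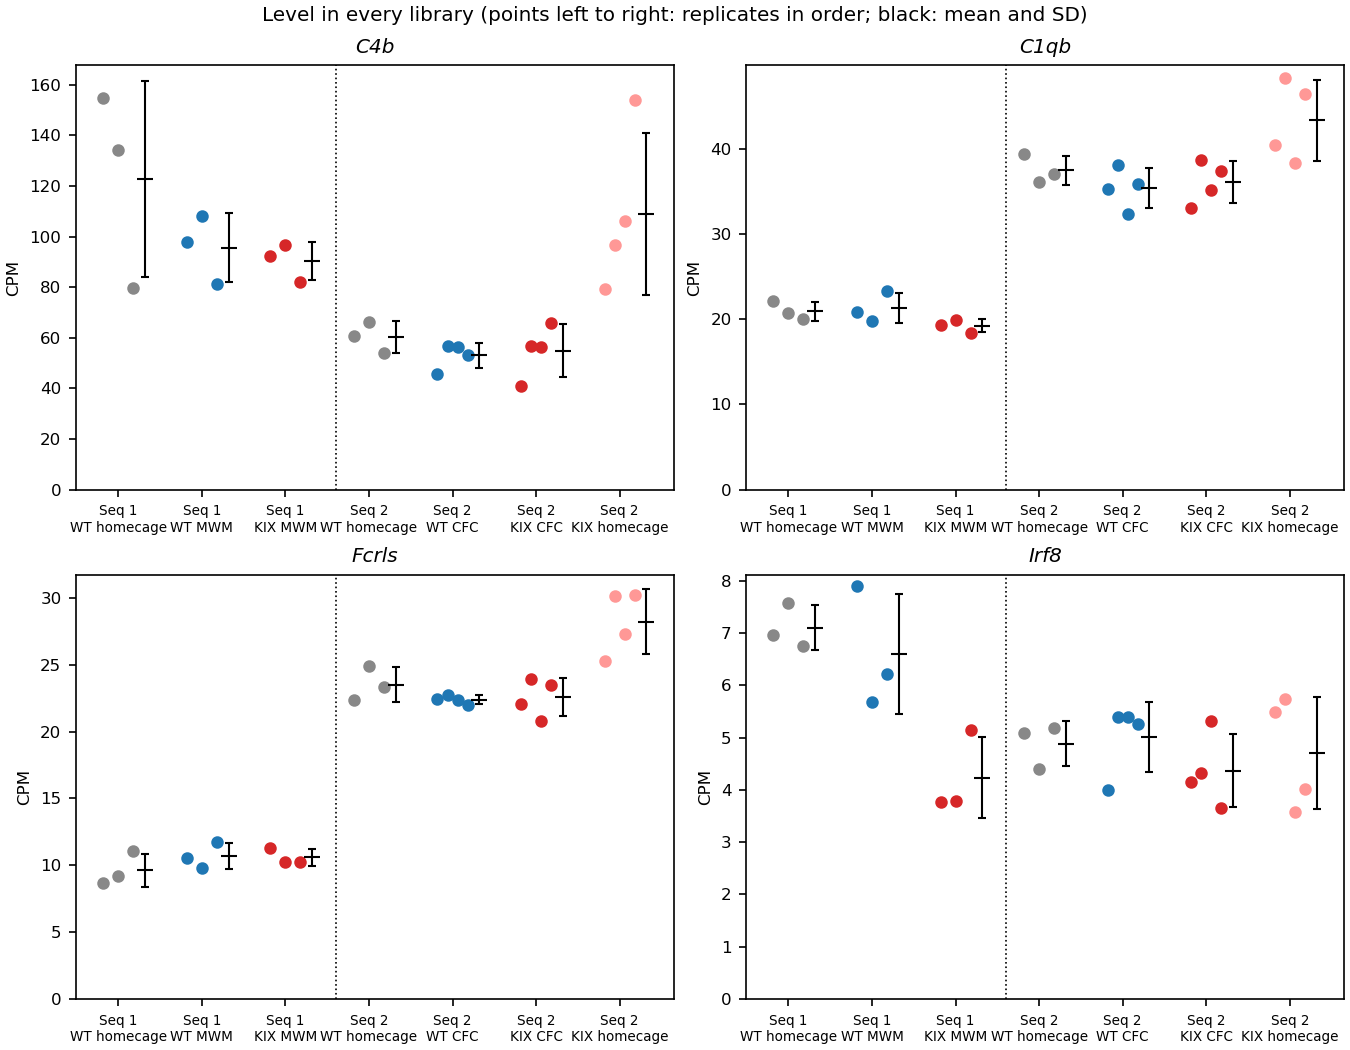
CPM (y axis, from 0) of *C4b*, *C1qb*, *Fcrls* and *Irf8* in every library of the 7 groups (x axis), with 1 point per library and the mean and SD in black beside them. The dotted line separates RNA-Seq 1 from RNA-Seq 2, whose levels are not compared. The 4 CBP KIX/KIX homecage libraries are the highest of RNA-Seq 2 for *C4b* (79.4 to 154 CPM) and *Fcrls*, and the 3 CBP KIX/KIX MWM libraries are the lowest of RNA-Seq 1 for *Irf8*.

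After CFC the genotypes were close. Between CBP KIX/KIX CFC and WT CFC mice, 0 of the 35 genes were called, against 0.0106% of all genes, and 0 had an unadjusted p under 0.05, where 441 of all genes had one (edgeR's quasi-likelihood test). The median log2 fold change was 0.02 against 0.01 over all genes. The largest positive differences were 0.39 (SE 0.29) for *C3* and 0.38 (SE 0.49) for *Mrc1*, and the largest negative one was −0.22 (SE 0.16) for *Cd68*. For most genes of microglia the intervals were narrow. *Cx3cr1*, at 39.2, 46.8, 43.7 and 44.6 CPM in CBP KIX/KIX CFC mice, had a log2 fold change of 0.02 (95% interval −0.16 to 0.19). *Csf1r*, at 78.5, 98.0, 86.5 and 91.4 CPM, also had one of 0.02 (95% interval −0.13 to 0.17), and *P2ry12*, at 30.7, 37.1, 35.2 and 33.7 CPM, one of 0.01 (95% interval −0.20 to 0.22). *Trem2* was at 9.76, 11.5, 10.1 and 12.1 CPM, with −0.09 (95% interval −0.40 to 0.22). The genotypes overlapped for all 4.

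**Figure D4:**
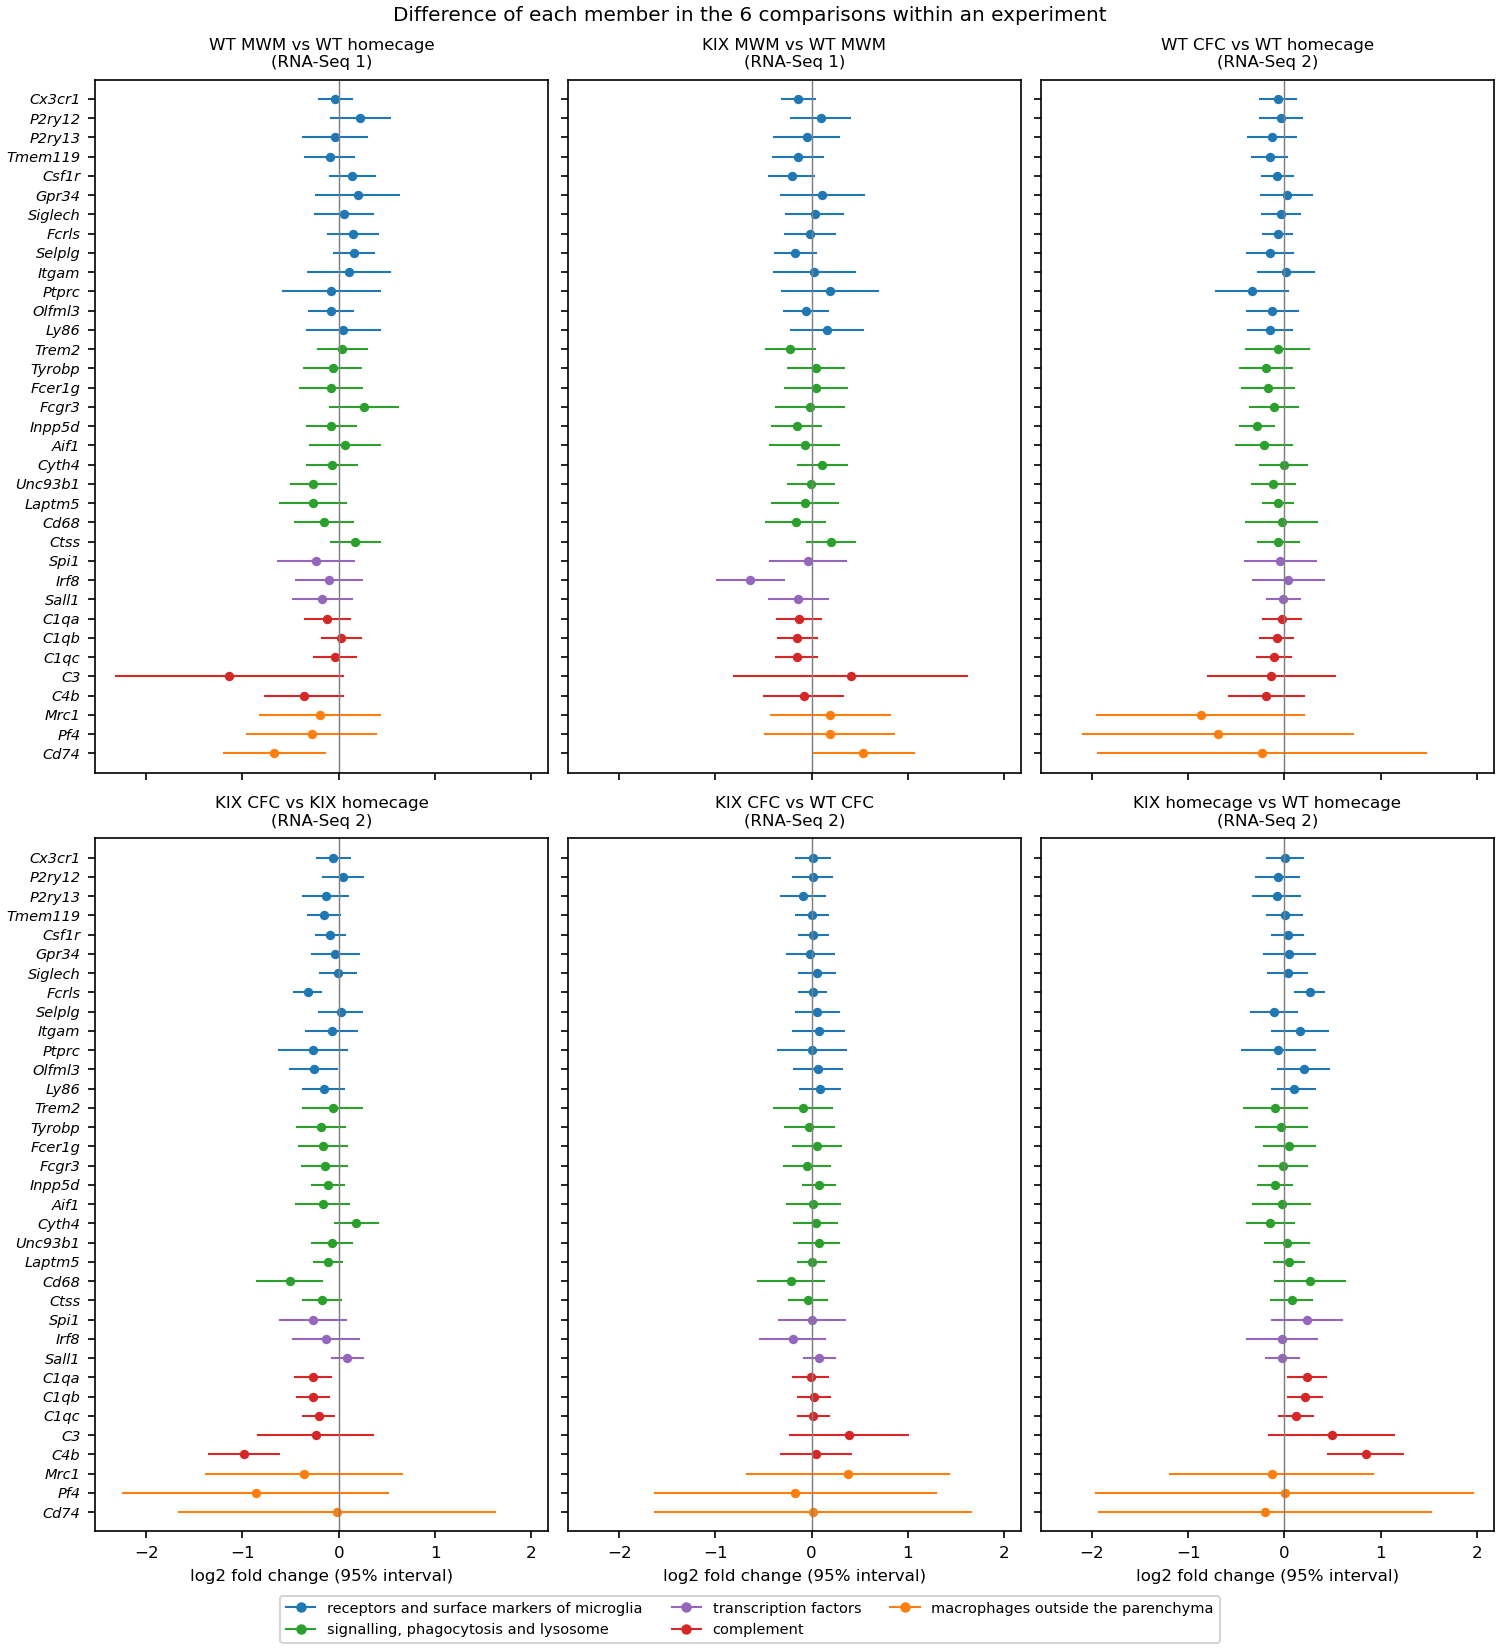
Log2 fold change (points, x axis) with its 95% interval (lines) of each of the 35 genes (y axis, coloured by role) in the 6 comparisons within an experiment. Most intervals cross 0. Those of *C4b*, *Fcrls* and the C1q genes lie below 0 between CBP KIX/KIX CFC and homecage mice, that of *Irf8* lies below 0 after the MWM, and those of *Mrc1*, *Pf4* and *Cd74* are the widest in RNA-Seq 2.

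Border macrophage genes varied most between the libraries of RNA-Seq 2. *Cd74* was at 0.942, 10.4 and 0.971 CPM in WT homecage and at 0.842, 7.87, 2.52 and 3.02 CPM in WT CFC mice of RNA-Seq 2. In CBP KIX/KIX mice it was at 0.906, 2.67, 5.98 and 5.95 CPM after CFC and at 1.68, 4.69, 4.74 and 4.08 CPM in the homecage. *Mrc1* was at 1.35, 5.99 and 1.49 CPM in WT homecage, at 1.21, 2.04, 1.65 and 1.75 CPM in WT CFC, at 1.23, 1.97, 2.12 and 3.65 CPM in CBP KIX/KIX CFC and at 1.16, 4.19, 3.34 and 2.45 CPM in CBP KIX/KIX homecage mice. Single libraries set the ranges, and all 4 groups overlapped for both genes.

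Markers of the choroid plexus, the epithelium that makes cerebrospinal fluid, and of the meninges followed these genes in part of the libraries. The sum of 6 choroid plexus markers ran from 30.1 to 4577 CPM and that of 5 meningeal fibroblast markers from 73.0 to 294 CPM over the 15 libraries of RNA-Seq 2. WT homecage replicate 2, the highest for *Cd74* and *Mrc1*, had 1844 CPM of choroid plexus and 294 CPM of meningeal markers. WT CFC replicate 2, with *Cd74* at 7.87 CPM, had the 4577 CPM of choroid plexus markers, but *Mrc1* at only 2.04 CPM. CBP KIX/KIX homecage replicate 2, with *Mrc1* at 4.19 CPM, had 131 CPM of choroid plexus and 200 CPM of meningeal markers. The 4 libraries with *Cd74* under 1 CPM had 30.1, 31.1, 38.2 and 48.4 CPM of choroid plexus markers. Their part in the levels of *Cd74* and *Mrc1* was not tested. *Pf4*, a chemokine made by border macrophages and platelets, was at most 1.05 CPM, and its lowest library held 2 counts.

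**Figure D5:**
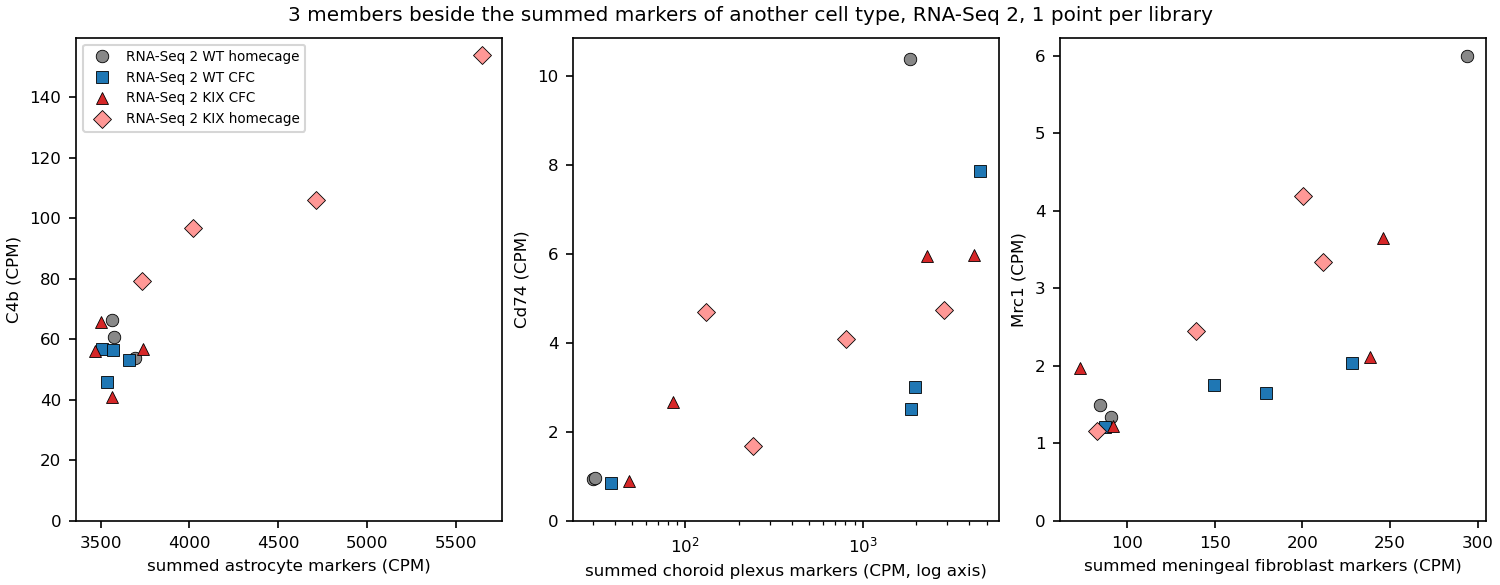
For the 15 libraries of RNA-Seq 2 (1 point each, shaped by group), the CPM of *C4b*, *Cd74* and *Mrc1* (y axes, from 0) are set against the summed CPM of astrocyte, choroid plexus (log axis) and meningeal fibroblast markers (x axes). The 4 CBP KIX/KIX homecage libraries rise in *C4b* along with the astrocyte sum, and *Cd74* is under 1 CPM in the 4 libraries with under 50 CPM of choroid plexus markers.

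A joint comparison of both tasks, as in the study, asked which genes differed by genotype after learning. The study also normalized for GC content, which the values given first here do not include. Over the 14 trained mice, in a fit with a term for the experiment and 4 estimated nuisance factors, 1 of the 35 genes was called, *Irf8*, where 2.84% of the 21489 genes tested were (edgeR's quasi-likelihood test). Its log2 fold change was −0.39 (SE 0.09, adjusted p = 0.0336), and it lay below the WT mean of its experiment in 6 of 7 CBP KIX/KIX mice. After CFC *Irf8* was at 4.01, 5.39, 5.39 and 5.26 CPM in WT and at 4.16, 4.33, 5.33 and 3.65 CPM in CBP KIX/KIX mice, a log2 fold change of −0.20 (SE 0.16, adjusted p = 1) against the −0.63 after the MWM. The genotypes overlapped after CFC and did not after the MWM, and the difference between the tasks was not tested. In the homecage, *Irf8* was at 5.09, 4.40 and 5.18 CPM in WT and at 5.48, 5.74, 3.59 and 4.02 CPM in CBP KIX/KIX mice, at −0.03 (SE 0.17).

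The call of *Irf8* rested on the factors and on single libraries. Without factors the adjusted p of *Irf8* was 0.372 at a log2 fold change of −0.40, and with GC-content normalization it was 0.0701 at −0.43, where 213 genes were called in place of 610. The call was also lost without WT MWM replicate 1 (adjusted p = 0.166), WT MWM replicate 3 (0.0537), CBP KIX/KIX MWM replicate 1 (0.0907), CBP KIX/KIX MWM replicate 2 (0.131) or CBP KIX/KIX CFC replicate 4 (0.0531), at log2 fold changes of −0.32 to −0.39. Of the other 34 genes, *Csf1r*, at −0.08 (SE 0.03, adjusted p = 0.232), and *Trem2*, at −0.15 (SE 0.06, adjusted p = 0.217), had an unadjusted p under 0.05. With *Irf8*, that was 8.57% of the 35 genes, against 18.2% of all genes. The median of the 35 was −0.02 against −0.01 over all genes.

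The joint comparison of learning in WT mice called 0 of the 35 genes, where 1.04% of the 22038 genes tested were called (edgeR's quasi-likelihood test, with 3 factors). The median log2 fold change was −0.08 against −0.03 over all genes, with 26 lower and 9 higher. *Inpp5d*, at −0.18 (SE 0.05, adjusted p = 0.109), *Unc93b1*, at −0.18 (SE 0.05, adjusted p = 0.112), *C4b*, at −0.24 (SE 0.07, adjusted p = 0.116), and *Laptm5*, at −0.14 (SE 0.05, adjusted p = 0.133), had an unadjusted p under 0.05. They were 11.4% of the 35 genes, against 17.3% of all genes with such a p. *C4b* and *Laptm5* lay below the homecage mean of their experiment in 7 of 7 trained mice, and *Inpp5d* and *Unc93b1* in 6 of 7. WT homecage replicate 3 of RNA-Seq 1 was the library with the strongest GC-dependent deviations. Without it, these 4 genes and *Tmem119*, a surface marker of microglia, were called, where 2277 of 22494 genes were.

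Other genes of these pathways, from lists that include no gene of the 35, were called only in the joint comparison of genotypes, where 2.84% of all genes were, and 1 of 35 is close to that share. Of 35 other microglia genes, 1 was lower in trained CBP KIX/KIX than in trained WT mice, *Il10ra*, the receptor for interleukin 10, at −0.30 (SE 0.07, adjusted p = 0.0313). Of 25 other complement genes tested, *Sez6* at −0.17 (SE 0.04, adjusted p = 0.0192) and *Csmd1* at −0.12 (SE 0.03, adjusted p = 0.0194) were lower and *C1ql3* was higher at 0.18 (SE 0.05, adjusted p = 0.0423). These 3 carry complement-related domains and are expressed by neurons. Of the 15 disease-associated microglia genes, *B2m*, the light chain of MHC class I, was higher at 0.19 (SE 0.05, adjusted p = 0.0415), and of 12 cytokine and NF-kB response genes tested, *Irf7*, an interferon-induced factor, was higher at 0.51 (SE 0.13, adjusted p = 0.0428). Of 10 ligands and neuron-side partners and of 15 border macrophage and MHC class II genes, 0 were called. In the WT learning comparison and in the 6 comparisons within an experiment, 0 genes of these lists were called.

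The cytokine and NF-kB response list had a median of −0.62 between CFC and homecage mice of the CBP KIX/KIX genotype, against 0.01 over all genes. Of its 13 genes, 9 had an unadjusted p under 0.05, where 13% of all genes had one, and 0 were called. Against WT homecage mice, CBP KIX/KIX homecage mice had a median of 0.39 on this list. There, 3 of 13 had an unadjusted p under 0.05, where 9.81% of all genes had one. Without CBP KIX/KIX homecage replicate 3, the medians were −0.66 and 0.42.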

How the data were processed

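RNA-seq of dorsal hippocampus was analysed in 24 libraries. The authors deposited raw read counts per gene, made with STAR, SAMtools 1.6 and featureCounts 1.4.4 on mm10 (GRCm38) as the submitters' processing notes name them. The strand setting and the annotation release are not given in the sources used here. Without a stated strand setting, overlapping genes cannot be separated.

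Groups were taken from the sample labels. Counts were filtered by expression, normalized by the upper quartile within each fit and tested with edgeR 4.0.16 (R 4.3.3) by its quasi-likelihood test, two-sided, with Benjamini-Hochberg adjustment over all genes tested and a threshold of 0.05. Fits within an experiment used all 9 or all 15 libraries. The joint fits added a term for the experiment and RUVr factors, recomputed here, 4 for genotype after learning and 3 for WT learning. Fold changes are those of the fit at edgeR's default settings. Standard errors were derived from the fold change and the F statistic of its test, and intervals are at 95%. A prior count of 2 was used only for the log2 CPM behind the GC deviations and the pairing of replicates. The study's methods also adjust for GC content before these steps, which was an alternative here and not part of the values given first. CPM were computed here. Summed markers are plain sums of CPM. The smallest detectable amount was set at 3 counts, and such limits cover counting error only. The code was tested on simulated counts. Nothing in the labels says whether libraries of a group came from separate litters or batches, so the p-values measure the spread between these libraries. Total counts of RNA-Seq 2 went with the replicate number in every group. They were 30143949 to 46056290 in replicates 1 and 2 and 15385836 to 20568337 in replicates 3 and 4. What the replicate numbers stand for is not given by the labels and was not tested.

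Replicate numbers were read as pairs where same-numbered libraries deviated together from their group means in every pair, with correlations over 0.1. This held for WT MWM with WT homecage (0.118 to 0.187), WT CFC with WT homecage (0.227 to 0.515) and CBP KIX/KIX CFC with CBP KIX/KIX homecage (0.190 to 0.386). It did not hold between the genotypes after the MWM (−0.183 to −0.0117), after CFC (−0.159 to 0.562) or in the homecage (0.0732 to 0.318). Mean correlations there were −0.0734, 0.248 and 0.184, against 0.0366, −0.0822 and −0.0603 between other numbers. In fits within an experiment, the block was shared by all groups of the fit. No library pair of a group agreed within sampling noise, the chi-square per gene being 2.59 to 81.3 over 30 pairs.

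The 35 genes and all lists were chosen with earlier results of these data known. Values in every library are given for genes called in any comparison and for *Cx3cr1*, *P2ry12*, *Csf1r*, *Trem2*, the C1q genes, *C3*, *C4b*, *Mrc1* and *Cd74*, and from other lists at most 3 called genes are named per comparison. Alternatives were DESeq2 1.42.0, TMM, a stricter or no count filter, GC-content normalization over 10 bins, the replicate block, fewer factors, fits of the compared groups alone and leaving out each library.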

Additional observations from a re-analysis of the deposited data

Results flagged for a closer look

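In 3 of 105 sets of a gene and a group of 4 libraries, 1 library lay far from the others of its group. Chance gives about 1 in 20 for a single such set, and these sets share their libraries, so they are not independent. *Irf8* was at 4.01 CPM in WT CFC replicate 1, with the others at 5.26 to 5.39 CPM. *Cyth4*, an exchange factor of leukocytes, was at 20.02 CPM in CBP KIX/KIX homecage replicate 1, with the others at 15.9 to 16.5 CPM. *Unc93b1* was at 12.8 CPM in CBP KIX/KIX CFC replicate 1, with the others at 15.5 to 16.0 CPM.

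For 4 of the 35 genes, all libraries of a group lay on one side of the mean of the group compared with. In the other experiment, all lay on the opposite side. This rule lets the groups overlap, and how many of all genes meet it was not counted. These differences were not tested. Between genotypes, *Sall1* had a log2 fold change of −0.14 after the MWM and of 0.079 after CFC, and *Inpp5d* one of −0.155 and 0.0765. Between trained and homecage WT mice, *Fcrls* had one of 0.15 after the MWM and −0.0714 after CFC, and *Fcgr3*, an activating Fc receptor, one of 0.26 and −0.11. Task and library type cannot be told apart here.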

How the results depend on the processing

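Each comparison was refitted under other settings, 192 in all. Of the 315 pairs of a gene and a comparison, 25 had an unadjusted p under 0.05 and 0 of these changed sign under any alternative, while 143 of all 315 did. The count of the 35 genes called stayed at 0 under every alternative for CBP KIX/KIX MWM against WT MWM, WT CFC against WT homecage, CBP KIX/KIX CFC against WT CFC and the interaction. In the trained against homecage CBP KIX/KIX mice it was 2 with DESeq2, where 301 of 15546 genes were called. It was 1 with no filter (55 of 35311 genes) and 1 with the replicate block (4 of 18851 genes). Leaving out each library gave 0 to 4, with 999 of 18332 genes called at the maximum. Against WT homecage mice, CBP KIX/KIX homecage mice gave 1 with DESeq2 (58 of 14086 genes) and 1 with no filter (17 of 35311 genes). They gave 0 to 2 when each library was left out, with 445 of 18332 genes called at the maximum. Both maxima arose without CBP KIX/KIX homecage replicate 1. WT MWM against WT homecage gave 0 to 6, with 6 without WT homecage replicate 3 (2418 of 22563 genes). It gave 2 in the fit of those groups alone with the replicate block (465 of 21657 genes).

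For genotype after learning the count was 0 with GC-content normalization, with 0, 1 or 2 factors and with the replicate block without factors. It was 3 with the block and the factors (*Csf1r*, *Irf8* and *Cd74*), where 2787 of 21489 genes were called. It was 0 to 1 when each library was left out, where 234 to 1023 genes were called. WT learning gave 2 with the block and the factors (*Laptm5* and *C4b*), where 929 of 22038 genes were called. It gave 0 to 5 when each library was left out, with 2277 of 22494 genes called at the maximum. The replicate block changed no other call. The cause of these changes was not tested. Over all genes, the numbers called ran from 4 to 2787 for genotype after learning, 9 to 2277 for WT learning, 0 to 2418 for WT MWM, 0 to 21 for WT CFC, 0 to 999 for CBP KIX/KIX CFC against homecage, 0 to 445 for CBP KIX/KIX homecage, 0 to 7 for CBP KIX/KIX MWM, 1 to 4 for CBP KIX/KIX CFC against WT CFC and 0 to 63 for the interaction. With TMM, 3 of 245 group levels moved by over 1 SD, by 3.01% at most. With 3 or 4 mice a group, small differences of *C3*, *Pf4*, *Mrc1* and *Cd74* were not detectable.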

Other observations

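Some markers of other cell types were called in the joint comparisons (edgeR's quasi-likelihood test), where 2.84% and 1.04% of all genes were. In trained CBP KIX/KIX against trained WT mice, 3 of 6 astrocyte genes and 1 of 8 neuron genes were called. The astrocyte genes *Gfap*, at −0.29 (SE 0.04, adjusted p = 0.00191), and *Aldh1l1*, at −0.26 (SE 0.04, adjusted p = 0.00432), were lower and *Gja1*, the astrocyte gap junction gene, was higher at 0.16 (SE 0.03, adjusted p = 0.00807). *Tubb3*, a neuronal tubulin gene, was lower at −0.15 (SE 0.03, adjusted p = 0.0147). In trained against homecage WT mice, 1 of 6 endothelial and 1 of 6 choroid plexus genes were called. *Cldn5*, a tight junction gene of endothelium, was lower at −0.49 (SE 0.09, adjusted p = 0.0296), and *Folr1*, the folate receptor of the choroid plexus, was higher at 1.5002 (SE 0.32, adjusted p = 0.0449). The 7 parenchymal microglia markers had median log2 fold changes of 0.00 in both, with 0 called.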
